A study of Homo sapiens with 9 samples.

Results

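The genes described here are 10 interleukin receptor chains: IL1R2, IL18R1, IL7R, IL2RA, IL2RB, IL2RG, IL10RA, IL21R, IL4R and IL6R. They were taken as a list of names, with every probe set whose only gene symbol is 1 of those names, which gave 17 probe sets for 10 of the 19775 genes measured. All 10 were found, 5 of them with 1 probe set and 5 with more than 1. Expression was measured on 9 Affymetrix arrays in P493-6, an established human B-lymphocyte line, in 3 groups labelled by Myc level. The groups were high Myc (4 arrays), low Myc (3 arrays) and no Myc (2 arrays). As background, P493-6 carries a MYC transgene that tetracycline turns off and an EBNA2 protein of Epstein-Barr virus that depends on oestrogen. All 3 groups are this single line, and the labels give neither the agents nor the times by which the Myc levels were set. They also do not say whether replicates were separate cultures, so p-values here reflect array-to-array spread alone, which may be technical.

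Interleukin receptors let blood cells answer cytokines made by their neighbours. Most are pairs or triplets of chains: one binds the ligand and another is shared, such as the common gamma chain IL2RG, which serves the receptors for IL2, IL4, IL7, IL9, IL15 and IL21. These chains signal through JAK kinases and STAT transcription factors. The IL1 and IL18 receptors form a separate family that signals through MYD88 to NF-kB, and in it IL1R2 is a decoy that binds IL1 without passing on a signal. In B cells, IL4 and IL21 drive activation and class switching, IL7 serves the earliest stages of development, and IL10 promotes survival and antibody secretion.

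MYC was read first, as the check of the labels. Its intensity was 12755, 11326, 15404 and 12186 on the high Myc arrays, 2126, 2526 and 1443 on the low Myc arrays, and 2803 and 416 on the no Myc arrays. High Myc stood clear of both other groups, but the library labelled no Myc replicate 1 read above all 3 low Myc arrays. The low Myc and no Myc groups did not differ in MYC beyond their spread (log2 difference 0.87 ± 0.64 SE, limma adjusted p = 0.484). High Myc replicate 2 also stood apart. On a scale where 0 is the mean of the other 3 high Myc arrays and 1 the mean of the low Myc arrays, it lay at a median of 0.55 over 629 genes. These genes differed at least 2-fold between the groups in a fit without that array. The other high Myc arrays, each placed by its own fit over 150 to 172 genes, lay between -0.08 and -0.03. For these, the arrays that set the 0 included replicate 2, so their scale and genes differed from those used for replicate 2. Results that rest on either library are given with and without it. The B-cell markers MS4A1, which encodes CD20, and CD79A, a part of the B-cell receptor, read 2995 to 10885 and 1383 to 7498 over the 9 arrays. Not all of the 11 markers measured were so bright: CD72 read 50.8 to 69.5 in low Myc, and CR2 read 45.0 to 148 in high Myc and 47.3 to 61.5 in no Myc. The T-cell marker CD3D read 108 to 139 with no order by group.

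Each of the 10 receptors took one of a few courses over the 3 Myc groups, and 7 of them were called in at least 1 comparison, as were 27.6% of all genes. The list was chosen with earlier results of these data known, so such shares are no test of the list. IL1R2, IL18R1 and IL2RB were highest in low Myc. IL7R was highest in high Myc, IL2RG was lowest there, and IL10RA and IL4R were highest in no Myc. No difference of IL21R, IL6R or IL2RA was called. A gene was called at a Benjamini-Hochberg adjusted p under 0.05, over all 19775 genes, in limma's test on log2 intensity.

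**Figure D1:**
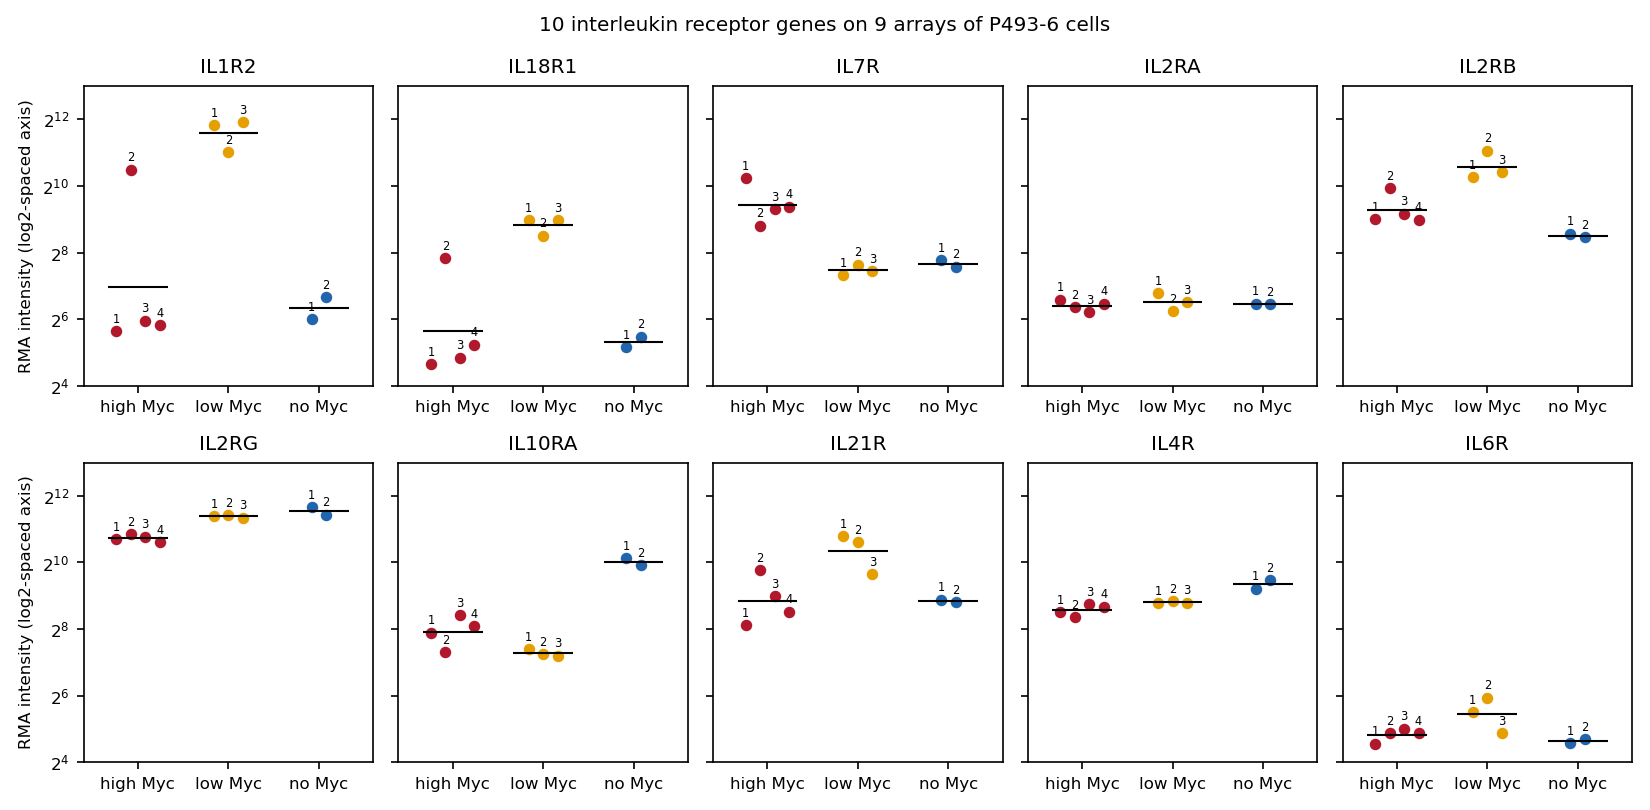
Intensity of each interleukin receptor on each of the 9 arrays, on a log axis, by Myc group. The points are replicate numbers and the black line is the mean of the log2 values. In low Myc, IL1R2 read 2075 to 3849, and 3 of the 4 high Myc arrays read 50.2 to 62.2, while high Myc replicate 2 read 1434.

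IL1R2, the IL1 decoy receptor (Entrez gene 7850), was high in the low Myc cells and close to the median of the array, or under it, in nearly all others. Its intensity was 3605, 2075 and 3849 on the low Myc arrays, 64.3 and 101 on the no Myc arrays, and 50.2, 1434, 62.2 and 56.6 on the high Myc arrays. Low Myc did not overlap either other group, and high Myc replicate 2 was the only array elsewhere that came near it. The log2 mean was 11.58 ± 0.49 (SD, n = 3) in low Myc, 6.33 ± 0.46 (SD, n = 2) in no Myc and 6.98 ± 2.34 (SD, n = 4) in high Myc. The difference of low Myc from no Myc was 5.25 ± 1.27 SE (adjusted p = 0.0185). That call was lost when low Myc replicate 1 (0.0557), the library labelled no Myc replicate 1 (0.131) or no Myc replicate 2 (0.0742) was left out. Against low Myc, high Myc was lower by 24.3-fold, with an adjusted p of 0.0521 that just missed the threshold. Without high Myc replicate 2 that log2 difference was -5.77 (adjusted p = 3.01e-05). The second probe set of the gene read lower but moved alike, at 1037, 541 and 884 in low Myc against 40.4 and 56.1 in no Myc, and its correlation with the first over the 9 arrays was 0.999.

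IL18R1, the chain that binds IL18 (Entrez gene 8809), had the same course at lower intensity. It read 506, 364 and 502 on the low Myc arrays, 36.0 and 44.5 on the no Myc arrays, and 25.1, 227, 28.9 and 37.7 on the high Myc arrays. Again no low Myc array overlapped the other groups, and high Myc replicate 2 lay between the low Myc arrays and the rest. IL18R1 was higher in low than in no Myc by 3.50 ± 0.80 SE on the log2 scale, or 11.3-fold (adjusted p = 0.0143). Leaving out the library labelled no Myc replicate 1 (0.105) or no Myc replicate 2 (0.0652) ended this call. It was also higher in low Myc than in high Myc, by 9.07-fold (adjusted p = 0.0384), a call kept only when no array or high Myc replicate 2 was left out. Without high Myc replicate 2 the log2 difference was -3.91 (adjusted p = 3.79e-05), and without each other array in turn the adjusted p was 0.0581 to 0.129. High Myc and no Myc were not told apart, at 0.32 ± 0.76 SE (adjusted p = 0.864). With both doubted libraries left out, low Myc minus no Myc was 3.35 in IL18R1 (adjusted p = 0.0027) and 4.93 in IL1R2 (adjusted p = 0.00247). This fit also lacks the array that widened the high Myc spread. As in every fit without 1 no Myc library, the lone no Myc array is assumed to vary like the other groups.

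The promoters of these 2 genes are shown because they moved together most closely of the 10, with a correlation of 0.996 over the 9 arrays. Each sequence is the 250 bases before a RefSeq start site on GRCh38.p14, read 5′ to 3′ on the plus strand, at chr2:101991710-101991959 for IL1R2 and chr2:102355546-102355795 for IL18R1. Capitals mark matches to the motifs searched on both strands.
IL1R2: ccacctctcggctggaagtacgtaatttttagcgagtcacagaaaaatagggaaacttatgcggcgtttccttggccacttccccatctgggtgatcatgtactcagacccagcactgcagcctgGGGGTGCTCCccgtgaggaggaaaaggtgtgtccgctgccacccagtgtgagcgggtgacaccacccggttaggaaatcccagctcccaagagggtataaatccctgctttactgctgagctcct
IL18R1: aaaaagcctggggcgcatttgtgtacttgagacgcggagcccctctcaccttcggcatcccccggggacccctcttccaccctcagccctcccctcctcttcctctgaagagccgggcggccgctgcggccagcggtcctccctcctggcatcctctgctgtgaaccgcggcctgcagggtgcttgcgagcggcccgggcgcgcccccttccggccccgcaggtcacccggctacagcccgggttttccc
The IL1R2 window held 1 match to the NF-kB motif, 125 bases before the start, a motif found in 9.96% of 35116 promoter windows of this length. No match to any searched motif was found in the IL18R1 window. The other motifs were the E-box bound by MYC (CACGTG, in 6.34% of windows), the STAT element written as TTCNNNGAA (6.57%), the AP-1 site TGANTCA (6.57%) and the RBPJ site TGGGAA (20.8%). Of the 11 start sites listed for 9 of the 10 receptors, none held the E-box or the STAT element, 1 held AP-1, 1 held RBPJ and 4 held NF-kB, the latter in IL1R2, a second start of IL18R1, IL2RA and IL4R. No matches to different motifs overlapped in these windows, and a match of letters is not evidence of binding.

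IL1R2 and IL18R1 lie in a run of 6 consecutive protein-coding genes on chromosome 2, in the order IL1R2, IL1R1, IL1RL2, IL1RL1, IL18R1 and IL18RAP. IL1R1, the signalling receptor for IL1, read 124, 46.6 and 82.6 in low Myc, 15.7 and 18.7 in no Myc, and 17.9, 43.0, 17.2 and 18.4 in high Myc. The low Myc arrays were above all others, with high Myc replicate 2 just under the lowest of them. High Myc was called lower than low Myc in IL1R1 (log2 difference -1.82 ± 0.39 SE, adjusted p = 0.0417). Among fits with both no Myc libraries, this was lost without replicate 1, 3 or 4 of high Myc, or 1 or 3 of low Myc. IL1R1 was called higher in low than in no Myc (log2 difference 2.19 ± 0.47 SE, adjusted p = 0.0106). The call was lost when the library labelled no Myc replicate 1 was left out (0.0905), and the fold is not exact because the no Myc mean of 4.10 is near the lowest intensities. IL18RAP, the accessory chain of the IL18 receptor, read 240, 153 and 116 in low Myc, 64.6 and 55.3 in no Myc, and 61.6, 98.5, 55.9 and 85.0 in high Myc, without overlap of low Myc with the others. Its difference of low Myc from no Myc was 1.44 ± 0.32 SE (adjusted p = 0.0126), and was not called without either no Myc library. IL1RL2, the IL36 receptor, and IL1RL1, the IL33 receptor, lie between them and were not called. They read 73.3 to 84.8 and 158 to 208 over all 9 arrays, so the 4 genes that moved do not form an unbroken run.

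**Figure D2:**
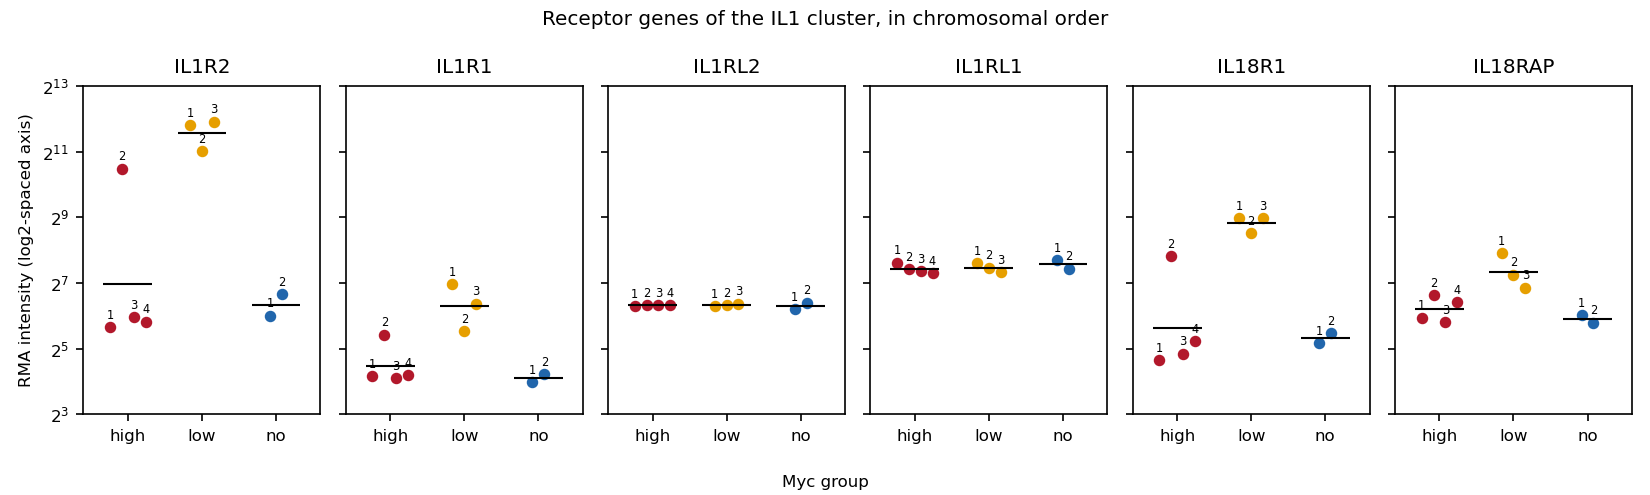
Intensity on a log axis of the 6 neighbouring genes of the IL1 receptor family, in their chromosomal order, on each of the 9 arrays. Points are replicate numbers by Myc group and black lines are means of log2 values. IL1R2, IL1R1, IL18R1 and IL18RAP were higher on the low Myc arrays than on all others, and IL1RL2 and IL1RL1 stayed within 73.3 to 84.8 and 158 to 208.

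Among the chains of the IL2 receptor, IL2RB changed most. IL2RB (Entrez gene 3560) is the signalling beta chain for IL2 and IL15. It read 1223, 2135 and 1359 in low Myc, 511, 980.0, 576 and 509 in high Myc, and 379 and 352 in no Myc. The 3 groups did not overlap, and low Myc was highest and no Myc lowest. The log2 means were 10.57 ± 0.43 (SD, n = 3), 9.27 ± 0.45 (SD, n = 4) and 8.51 ± 0.08 (SD, n = 2) in that order. Low Myc exceeded no Myc by 2.06 ± 0.31 SE, or 4.18-fold (adjusted p = 0.00221), and this call was kept without any single array, at an adjusted p of up to 0.0239. High Myc was lower than low Myc by 2.46-fold (adjusted p = 0.0342). That second call was kept without high Myc replicate 2 (-1.52, adjusted p = 0.00347), and was lost without each of the other 8 arrays (0.0607 to 0.105). High Myc and no Myc did not pass the test (0.76 ± 0.30 SE, adjusted p = 0.112).

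IL2RG, the common gamma chain (Entrez gene 3561), was lower in high Myc than in both other groups, by a small and tight margin. Intensity was 1667, 1838, 1753 and 1562 in high Myc, 2695, 2748 and 2602 in low Myc, and 3214 and 2762 in no Myc. All 4 high Myc arrays, replicate 2 included, were under all 5 others. High Myc was 1.75-fold under no Myc (log2 difference -0.81 ± 0.10 SE, adjusted p = 0.000664) and 1.58-fold under low Myc (-0.66 ± 0.09 SE, adjusted p = 0.00865). Both calls were kept without any single array. IL2RA, the alpha chain that raises the affinity for IL2 and marks activated lymphocytes, was not called in its brighter probe set, which read 74.2 to 96.2 in high Myc, 76.1 to 110.3 in low Myc and 87.4 to 88.5 in no Myc. Its differences were between -0.11 and 0.06 on the log2 scale with SEs of 0.14 to 0.17. The other probe set of IL2RA read 29.4 to 43.7, was not called either, and correlated with the first at only 0.258 over the 9 arrays.

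IL7R, the alpha chain of the receptors for IL7 and TSLP (Entrez gene 3575), was the only one of the 10 that was highest in high Myc. It read 1205, 447, 634 and 667 there, against 159, 199.5 and 175 in low Myc and 218 and 191 in no Myc. High Myc did not overlap the others, replicate 1 was its highest array and replicate 2 its lowest, and low and no Myc overlapped. High Myc was 3.39-fold above no Myc (log2 difference 1.76 ± 0.32 SE, adjusted p = 0.00357) and 3.90-fold above low Myc (1.96 ± 0.28 SE, adjusted p = 0.00972). Both calls were kept without any single array, at an adjusted p of up to 0.0363 and 0.0475. A second probe set read 1379.6, 466, 635 and 787 in high Myc, 120.2, 162 and 75.0 in low Myc, and 190.2 and 143 in no Myc. It too was called, tested among all probe sets of the array, with log2 differences of 2.19 and 2.73. The promoter is shown because IL7R alone was highest where MYC was highest. It lies at chr5:35856641-35856890 of GRCh38.p14 on the plus strand, from RefSeq, and held no match to the E-box or to any other motif searched, which says only that these letters are not in this window.
IL7R: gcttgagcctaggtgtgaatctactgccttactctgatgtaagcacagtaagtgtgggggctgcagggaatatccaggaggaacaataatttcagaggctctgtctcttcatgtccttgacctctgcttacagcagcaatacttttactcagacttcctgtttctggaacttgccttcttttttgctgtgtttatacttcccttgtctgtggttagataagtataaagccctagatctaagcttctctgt

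IL10RA, the chain that binds IL10 (Entrez gene 3587), was far higher in no Myc than in the other groups. It read 1117 and 970.0 in no Myc, 169.7, 152 and 147 in low Myc, and 238, 159, 341 and 270.4 in high Myc. Both no Myc libraries stood above all 7 others, and low and high Myc overlapped through high Myc replicate 2. IL10RA was lower than in no Myc by 4.28-fold in high Myc (log2 difference -2.10 ± 0.25 SE, adjusted p = 0.000504) and by 6.68-fold in low Myc (-2.74 ± 0.27 SE, adjusted p = 0.000443). Neither call was lost without any single array. The difference of high Myc from low Myc, 0.64 ± 0.22 SE, was not called (adjusted p = 0.17), but without high Myc replicate 2 it was 0.85 and called (adjusted p = 0.0135). The promoter is shown because IL10RA held the only AP-1 match of the 11 start sites, 73 bases before the start and in capitals here. It lies at chr11:117989695-117989944 of GRCh38.p14 on the plus strand, from RefSeq.
IL10RA: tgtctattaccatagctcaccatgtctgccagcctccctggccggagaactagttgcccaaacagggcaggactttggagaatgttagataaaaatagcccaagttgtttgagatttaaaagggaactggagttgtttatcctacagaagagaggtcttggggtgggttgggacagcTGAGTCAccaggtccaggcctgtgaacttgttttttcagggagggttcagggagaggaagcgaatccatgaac

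IL4R, the alpha chain for IL4 and IL13 (Entrez gene 3566), was also highest in no Myc, by a smaller margin. It read 592.5 and 710.2 in no Myc, 439, 459 and 445 in low Myc, and 365, 327, 432 and 408.5 in high Myc. The groups did not overlap, though low and high Myc were adjacent. IL4R was 1.70-fold lower in high than in no Myc (log2 difference -0.77 ± 0.13 SE, adjusted p = 0.00264) and 1.45-fold lower in low Myc (-0.54 ± 0.14 SE, adjusted p = 0.0242). The latter call was lost without low Myc replicate 1 (0.0684) or no Myc replicate 2 (0.177). High and low Myc did not pass the test, at -0.23 ± 0.12 SE (adjusted p = 0.388).

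IL21R, which lies next to IL4R on chromosome 16 and binds IL21, the cytokine of follicular helper T cells, did not follow it. Its brightest probe set (Entrez gene 50615) read 1765, 1555 and 799 in low Myc, 473.5 and 448 in no Myc, and 276.5, 872, 508.5 and 369 in high Myc. The low Myc arrays were above no Myc, but low Myc replicate 3 was under high Myc replicate 2. Low Myc minus no Myc was 1.50 ± 0.47 SE (adjusted p = 0.0551), which just missed the threshold, and high Myc minus low Myc was -1.49 ± 0.39 SE (adjusted p = 0.0776). The first was called without high Myc replicate 1 (0.0409), high Myc replicate 2 (0.0186) or low Myc replicate 3 (0.0203). The second was called without high Myc replicate 2 (-1.80, adjusted p = 0.0147). The other probe sets correlated with it at 0.992 and 0.868, and neither was called.

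IL6R, the chain that binds IL6, was read near the lowest intensities, so its values carry no statement on presence and its fold is not exact. Its brightest probe set (Entrez gene 3570) read 45.4, 61.6 and 29.3 in low Myc, 23.9 and 26.1 in no Myc, and 23.6, 29.5, 32.3 and 29.3 in high Myc. Low Myc replicates 1 and 2 were above all other arrays, and replicate 3 lay among the high Myc arrays. Low Myc minus no Myc was 0.80 ± 0.27 SE (adjusted p = 0.0726). Without low Myc replicate 3 it was 1.08 (adjusted p = 0.00452), and high Myc minus low Myc was then -0.89 (adjusted p = 0.0342). The other 2 probe sets read 17.5 to 41.1 and 17.8 to 23.8 and were not called.

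**Figure D3:**
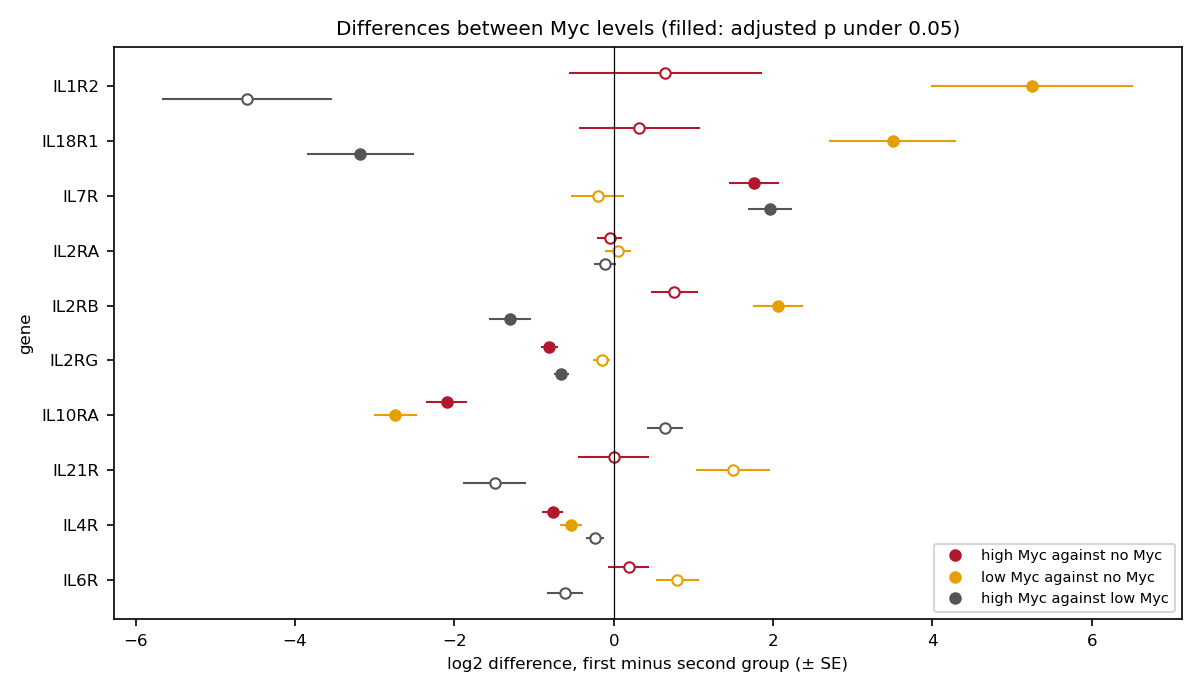
Log2 difference ± SE of each interleukin receptor in the 3 comparisons of Myc groups, from limma over 9 arrays. Filled points were called at an adjusted p under 0.05 and open points were not. The longest distances from 0 are those of IL1R2 and IL18R1 in the comparisons with low Myc, where IL1R2 was 5.25 above no Myc.

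Counted over the list, 1 of 10 receptors (IL7R) was called higher in high than in no Myc and 3 (IL2RG, IL10RA, IL4R) lower, where 14.2% and 9.0% of all genes were. Between low Myc and no Myc, 3 were called higher (IL1R2, IL18R1, IL2RB) and 2 lower (IL10RA, IL4R), beside 11.3% and 8.55% of all genes. Between high Myc and low Myc, 1 was called higher (IL7R) and 3 lower (IL18R1, IL2RB, IL2RG), beside 2.33% and 1.27% of all genes. The share higher in high than in no Myc was thus near the background, and that between high and low Myc rests on calls of IL18R1 and IL2RB that single arrays decide. The lower count of 3 in that comparison became 5 without high Myc replicate 2, 2 without low Myc replicate 3 and 1 without any other single array, and the higher count of 1 became 2 without high Myc replicate 2. The 3 higher calls of low Myc against no Myc became 1 without either no Myc library, 2 without low Myc replicate 1 and 5 without low Myc replicate 3. The 2 lower calls became 1 without low Myc replicate 1 or no Myc replicate 2. The 460 genes higher and 252 lower over all genes became 508 and 481 when quantile normalization was repeated. The comparisons share arrays and are not independent of each other. Because earlier results of these data were known when the 10 were chosen, counts beside shares do not test the list.

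By order of the groups, IL18R1 and IL2RB were called higher in low Myc than in both others, as were 0.496% of all genes. IL7R was called higher in high Myc than in both others, beside 1.3% of genes, and IL2RG lower in high Myc than in both, beside 0.556%. IL10RA and IL4R were called higher in no Myc than in both others, beside 6.26% of genes. The median log2 difference of the 10 was 0.10 for high against no Myc, 0.43 for low against no Myc and -0.63 for high against low Myc, and those of all genes were -0.01, 0.00 and 0.00. Tested 1 probe set at a time, with 17.0%, 14.4% and 1.57% of the 54675 probe sets called in the same 3 comparisons, both probe sets of IL1R2 were called in low against no Myc and both of IL7R in the comparisons with high Myc. In that limma test, IL18R1 (adjusted p = 0.0622) and IL2RB (adjusted p = 0.0542) were not called in high against low Myc. Neither was then called higher in low Myc than in both other groups.

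**Figure D4:**
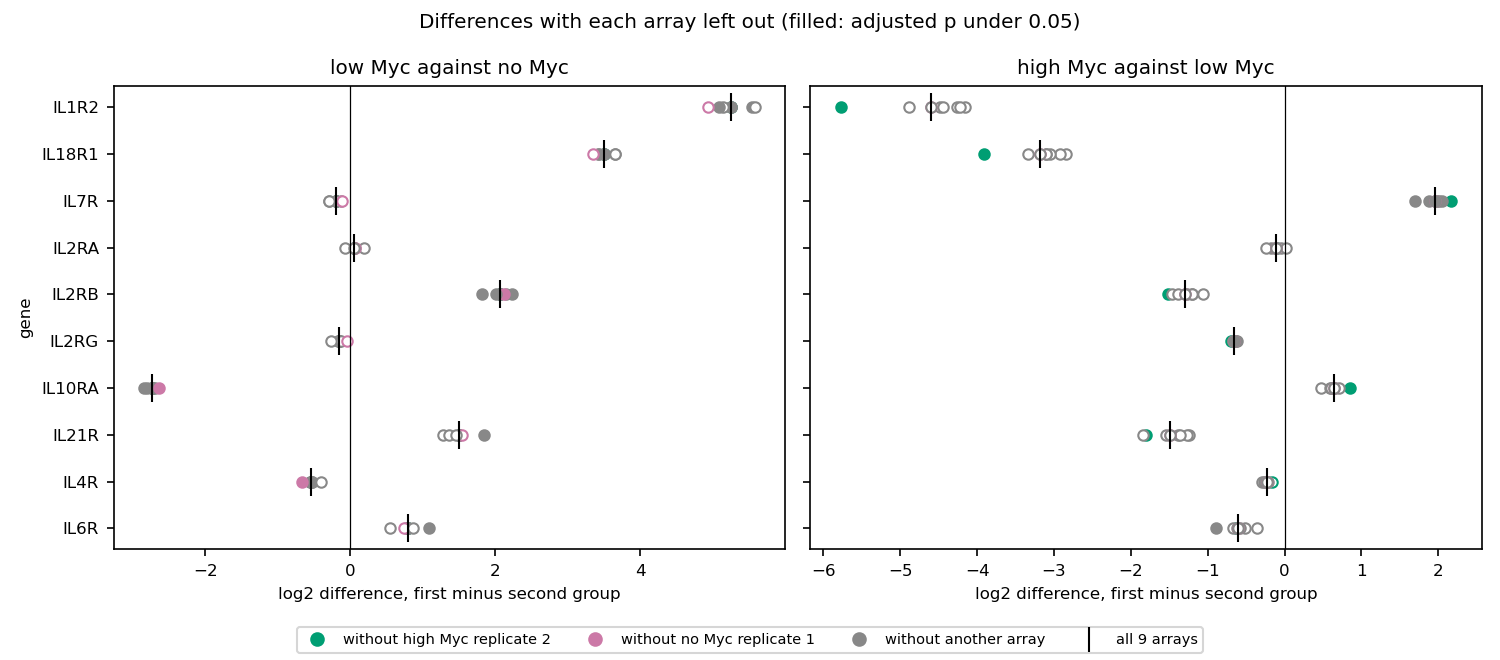
Log2 difference of each interleukin receptor when each of the 9 arrays was left out in turn, for low against no Myc and for high against low Myc. The tick is the value with all 9 arrays, green points leave out high Myc replicate 2 and pink points the library labelled no Myc replicate 1. Leaving out high Myc replicate 2 moved IL1R2 in high against low Myc from -4.60 to -5.77.

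High Myc replicate 2 sat at 0.81 of the way from the other high Myc arrays to low Myc in IL1R2, 0.75 in IL18R1, 0.68 in IL21R and 0.58 in IL2RB, and at 0.38 in IL7R. On that scale 629 genes were placed, those called and at least 2-fold apart between high and low Myc without this array. The median was 0.71 for the 310 that were higher in low Myc and 0.39 for those that were lower. Its MYC intensity of 11326 was the lowest of the 4 high Myc arrays and stood above the highest of low Myc, 2526. The part of this array's state in the results was not tested.

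The genes most like a receptor were sought over the 9 arrays by Pearson correlation, among 588 genes whose group means spanned at least 2 on the log2 scale. For IL1R2 they were IL18R1 (0.996), ADAMDEC1 (0.994) and ACKR3, a scavenging chemokine receptor (0.992). For IL18R1 they were IL1R2, DTX4 (0.991) and FRMD4A (0.989). IL2RB was most like PITPNC1 (0.957), ABHD6 (0.953) and DAPK1, a death-associated kinase (0.952). IL10RA was most like CD37, a B-cell tetraspanin (0.978), MARF1 (0.975) and PTGS1, a cyclooxygenase (0.974). These values describe 9 arrays in 3 groups, and a shared step between groups is enough to give them. CD37 read 5183 to 6488 in no Myc, 495 to 568 in low Myc and 398 to 1373 in high Myc. ADAMDEC1 read 294 to 774 in low Myc, 18.9 to 20.3 in no Myc and 15.95 to 369 in high Myc.

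Partner chains outside the list were mostly not called. Counts of this and the following lists are to be read against the shares of all genes given above: 14.2% higher and 9.0% lower in high against no Myc, 11.3% and 8.55% in low against no Myc, and 2.33% and 1.27% in high against low Myc. Of 21 other chains of the class I receptors measured, 1 was called in high Myc against no Myc and 3 in low Myc against no Myc, all of them lower. Between high and low Myc, 1 was called higher and 1 lower. With single arrays left out, the lower counts against no Myc were 1 to 3 (3 without high Myc replicate 3, 2 without high Myc replicate 2 or the third of low Myc) and 2 to 4, and the counts between high and low Myc were 1 to 2 and 0 to 2. Their median log2 differences in these 3 comparisons were -0.09, -0.03 and -0.04. IL13RA1, which pairs with IL4R in the receptor for IL13, read 1649 and 1512 in no Myc, 378, 338, 388 and 279.8 in high Myc, and 190.5, 117 and 145 in low Myc. The 3 groups did not overlap. Its log2 difference was -2.20 ± 0.20 SE in high Myc against no Myc (adjusted p = 0.000163) and -3.42 ± 0.21 SE in low Myc against no Myc (adjusted p = 0.000127). High Myc was above low Myc by 1.21 ± 0.17 SE (adjusted p = 0.00973), and no single array ended any of these calls. CSF2RB, the common beta chain for IL3, IL5 and GM-CSF, was lower in low than in no Myc (log2 difference -2.21 ± 0.34 SE, adjusted p = 0.00241). Of the 10 class II chains, with medians of -0.11, 0.04 and -0.06, 1 was called lower in each comparison with no Myc: IL10RB, the partner of IL10RA, which was lower by 2.90-fold in high Myc (log2 difference -1.54 ± 0.18 SE, adjusted p = 0.000446) and by 2.15-fold in low Myc (-1.10 ± 0.19 SE, adjusted p = 0.00376). So both chains of the IL10 receptor were highest in no Myc. Of 5 receptors of the IL17 family, IL17RA, the shared chain, was the only one called, and was lower in both comparisons with no Myc (-0.86 ± 0.15 SE in high Myc, adjusted p = 0.00265). Its call in low Myc was lost without the library labelled no Myc replicate 1 (0.0621).

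Of 14 ligands of these receptors measured, limma called 0 in any of the 3 comparisons, and 0 passed an unadjusted p under 0.05. Their median differences were -0.06, 0.01 and -0.05. Most read low: IL10 was 15.8 to 19.1 and IL18 14.3 to 17.1 on all arrays, while IL1B was 158 to 229.8. In the pathway behind the class I and class II chains, 5 of 9 JAK and STAT genes were called in high Myc against no Myc, all lower, beside 9.0% of all genes. The count was 2 without either no Myc library and 3 without high Myc replicate 4. The medians of the 9 were -0.40 for high against no Myc, -0.25 for low against no Myc and -0.68 for high against low Myc. Against no Myc, the log2 difference of high Myc was -1.71 ± 0.24 SE for JAK2 (adjusted p = 0.000966) and -1.20 ± 0.22 SE for STAT3 (adjusted p = 0.00407). STAT5A, which carries the signal of IL2RB, was called higher in low Myc than in high Myc (read as high minus low Myc, -0.88 ± 0.15 SE, adjusted p = 0.02), a call that ended when replicate 1, 3 or 4 of high Myc, or the first of low Myc, was left out.

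Feedback inhibitors moved in both directions. Of 14 measured, 2 were called higher and 4 lower in high than in no Myc, 3 and 2 in low than in no Myc, and 1 lower in high than in low Myc, against the shares of all genes above. The 4 became 1 without either no Myc library and 2 without high Myc replicate 3 or 4, and the 2 higher became 1 without no Myc replicate 2. In low against no Myc, the 3 became 1 and the 2 became 0 when the library labelled no Myc replicate 1 was left out. The 2 also became 0 without low Myc replicate 1, and 1 without no Myc replicate 2. The 1 in high against low Myc became 2 without replicate 2 of either group. Their medians were -0.03, 0.09 and -0.06. The SOCS proteins, which shut off cytokine signalling, differed among themselves. SOCS2, an inhibitor made in answer to STAT5, was lower in high than in low Myc (-1.36 ± 0.13 SE, adjusted p = 0.00193) and higher in low than in no Myc (0.84 ± 0.16 SE, adjusted p = 0.00574), the latter not without the library labelled no Myc replicate 1. SOCS7 was higher than in no Myc by 1.13 ± 0.14 SE in high Myc (adjusted p = 0.000566) and 0.91 ± 0.15 SE in low Myc (adjusted p = 0.0028). PTPN6, the phosphatase SHP1, was lower in high than in no Myc by 3.62-fold (-1.86 ± 0.29 SE, adjusted p = 0.00179).

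Of 16 target genes of STAT factors, 1 was called higher and 5 lower in high than in no Myc, 2 and 1 in low than in no Myc, and 3 lower in high than in low Myc, against the shares of all genes above. With single arrays left out, these counts ran over 0 to 1, 3 to 7, 0 to 3, 1 to 2 and 1 to 6. The lowest of the second, 3, came when the library labelled no Myc replicate 1 was left out, and the highest of the last, 6, without high Myc replicate 2. Their medians were -0.39, -0.19 and -0.30. FCER2, which encodes the IL4-induced surface protein CD23, read 707, 831, 424 and 611 in high Myc, 2553, 2471 and 2867 in low Myc, and 2590.5 and 1788 in no Myc. All 4 high Myc arrays were under the other 5. Its difference was -1.78 ± 0.25 SE against no Myc (adjusted p = 0.00103) and -2.07 ± 0.22 SE against low Myc (adjusted p = 0.00272). MCL1, a survival gene, was lower than in no Myc by 2.52-fold in high Myc and 3.23-fold in low Myc. BATF, a factor of B- and T-cell activation, was 4.45-fold higher in low than in no Myc (adjusted p = 0.0191), a call that ended when replicate 1 or 2 of low Myc, or that labelled no Myc replicate 1, was left out.

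Downstream of the IL1 and IL18 receptors, 12 signalling genes were measured. Of these, 1 was called higher and 2 lower in high than in no Myc. In low against no Myc 3 were called lower, and in high against low Myc 1 was called higher. Their medians were -0.16, -0.09 and -0.11 in the 3 comparisons. MYD88, the adaptor of these receptors, was lower than in no Myc in both, with log2 differences of -1.06 ± 0.20 SE in high Myc (adjusted p = 0.00448) and -1.42 ± 0.21 SE in low Myc (adjusted p = 0.002). IKBKB, a kinase that frees NF-kB, was lower too, with -1.43 ± 0.14 SE and -1.20 ± 0.14 SE in the same comparisons (adjusted p = 0.000207 and 0.000909). IRAK1, a kinase recruited by MYD88, was higher in high than in no Myc by 1.05 ± 0.20 SE (adjusted p = 0.00422). It was also higher in high than in low Myc, by 0.79 ± 0.17 SE (adjusted p = 0.0439). That last call was lost without any 1 of the high Myc arrays, without replicate 1 or 3 of low Myc, or without either no Myc library. So MYD88 and IKBKB were under their no Myc levels in low Myc, where IL1R2 and IL18R1 were highest, and in high Myc alike. Of 10 genes of receptor shedding and trafficking, 2 were called lower in high than in no Myc and 3 in low than in no Myc. In high against low Myc 1 was called higher. Without high Myc replicate 2, that comparison had 2 higher and 2 lower. The medians of the 10 were -0.38, -0.08 and -0.15 in the 3 comparisons. ADAM17, the protease that sheds IL6R and IL1R2, was lower in low than in no Myc (log2 difference -1.04 ± 0.14 SE, adjusted p = 0.00143). It was higher in high than in low Myc by 0.64 ± 0.12 SE (adjusted p = 0.0264). This second call was lost without replicate 1, 3 or 4 of high Myc, or replicate 1 or 3 of low Myc. RHBDF2, which guides ADAM17 to the surface, was lower than in no Myc as well, at -1.57 ± 0.26 SE in high Myc (adjusted p = 0.0021) and -2.43 ± 0.27 SE in low Myc (adjusted p = 0.000722).

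Markers of the B cell and of other cells also moved with the groups. Of 11 B-cell markers, 8 were called lower in high than in no Myc, beside 9.0% of all genes. The count was 2 when the library labelled no Myc replicate 1 was left out. They had a summed intensity of 10794 to 18149.6 in high Myc, 12972 to 15531 in low Myc and 28196 to 36611 in no Myc. In low against no Myc, 5 of the markers were called lower and 1 higher, and in high against low Myc 2 were called lower. Fewer were called lower in low against no Myc when the library labelled no Myc replicate 1 was left out. Without high Myc replicate 2, high against low Myc had 4 lower and 2 higher. Without any other high or low Myc array it had 1 lower. The 1 called higher in low than in no Myc was CR2, the complement receptor, by 12.2-fold (adjusted p = 0.00141). CR2 was also 10.4-fold higher in low than in high Myc (adjusted p = 0.00456). It was not called in high against no Myc, with log2 means of 5.99 and 5.75. Of 14 myeloid markers, 2 were called, LYZ and ITGAM, both higher in no Myc, where IL10RA and IL4R were highest too. Their list summed to 2004 to 2836 in no Myc, 722 to 817 in high Myc and 676 to 819 in low Myc. The 12 markers of the list that were called in no comparison, CD14, CSF1R and MPO among them, read 20.0 to 151 over all 9 arrays. Of 20 T and NK cell markers, 1 was called lower in high than in no Myc and 1 in low than in no Myc, and the sums overlapped, at 2094 to 2481, 2276 to 2664 and 2327 to 2625 in high, low and no Myc. Of 10 plasma cell markers, XBP1 alone was called higher in high than in no Myc. In low against no Myc 2 were lower, JCHAIN and CD38, and in high against low Myc JCHAIN was higher. With single high or low Myc arrays left out, these counts of 1, 2 and 1 ran over 0 to 2, 1 to 2 and 0 to 2. The markers summed to 6486 to 11446 in high Myc, 5202 to 7418 in low Myc and 9039 to 9723 in no Myc. JCHAIN, 1 gene within these sums, had log2 means of 11.42, 7.02 and 11.89 in those groups. It was 29.2-fold lower in low than in no Myc (adjusted p = 0.00905). Fibroblast and epithelial markers summed to 1103 to 1679 over all groups, with 1 of 11 called, CDH1, higher in low than in no Myc. The calls of JCHAIN, CD38 and CDH1 were each lost without either no Myc library. The 3′ end of GAPDH exceeded its 5′ end by 0.25 to 0.42 on the log2 scale in no Myc, 0.03 to 0.24 in high Myc and 0.0094 to 0.15 in low Myc, and no Myc was also the group where IL10RA and IL4R were highest. In ACTB, the other control of this kind, no Myc (-0.011 to 0.0039) lay within the ranges of high Myc (-0.049 to 0.19) and low Myc (-0.074 to 0.022). The part of these markers and of RNA ends in the receptors' values was not tested. In RNA from whole cultures, fewer cells that hold a receptor and less of its RNA per cell cannot be told apart.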

How the data were processed

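Values per probe set had been made by RMA, per the submitters' processing notes, in a version not given in the sources used here, and the authors deposited linear intensity values (median per array 75.3 to 80.3). RMA gives arrays a common distribution, so a difference is one relative to the rest of the array. No detection calls were used, so low values carry no statement on presence, and the number of arrays limits the precision. The log2 of the deposited intensity was used here.

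Of 54675 probe sets, 41097 had 1 gene symbol in the platform annotation, 1801 several and 11777 none. A gene was represented by its probe set with the highest mean. A model of group means was fitted to all 9 arrays at once with limma 3.58.1 (R 4.3.3, lmFit, contrasts, eBayes, two-sided), and p-values were adjusted by Benjamini-Hochberg within each comparison. The procedure was tested on simulated data. Folds against a group with a mean log2 under 5 are not exact.

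The 10 receptors and the gene lists were chosen with earlier results of these data known. Named genes were the 10 receptors, MYC, up to 4 called genes per list and comparison with the largest differences, and the 3 most correlated genes of each receptor whose group means spanned at least 2 on the log2 scale. Other genes named for their values (IL1RL1, IL1RL2, ligands, CD3D, MS4A1, CD14, CSF1R, MPO) were chosen after their values were seen. Promoters came from a RefSeq table (GRCh38.p14), which held 9 of the 10 receptors, and were searched for motifs in the 250 bases before the start. Alternatives were 2 scalings, an offset of 32, a filter on a mean log2 of at least 5, the median of probe sets, all probe sets, another prior, array weights, 2 groups alone, a replicate block, 2 thresholds and leaving out each array.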

Additional observations from a re-analysis of the deposited data

Results flagged for a closer look

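In each of the 17 probe sets, the highest and the lowest of the 4 high Myc arrays were set against the other 3, by the gap to the nearest other array divided by the whole range. A gap above 0.829, Dixon's limit for 4 arrays, is met by chance in about 1 in 20 groups. IL1R2 passed it in both probe sets, at 0.936 and 0.915, each time through high Myc replicate 2, which read 1434 and 393 while the other 3 arrays read 50.2 to 62.2 and 32.6 to 40.4. The same array gave gaps of 0.815 in IL18R1 and 0.810 in IL2RB, both under the limit. The third probe set of IL6R passed at 0.929 through high Myc replicate 4, which read 23.8, close to the lowest intensities of the array.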

How the results depend on the processing

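Of the values of single receptors under alternative settings, 578 kept their direction and side of the threshold, 24 gained a call, 41 lost one and 14 changed sign, none of those 14 in a called difference. With single arrays left out, high against no Myc ran from -0.52 to 1.09 in IL1R2, -0.41 to 0.65 in IL18R1, -0.30 to 0.25 in IL21R and -0.11 to 0.012 in IL2RA. In IL2RA, low against no Myc ran from -0.077 to 0.19 and high against low Myc from -0.24 to 0.025. The lowest of the first 3 came without high Myc replicate 2. High against no Myc also turned to -0.84 in IL1R2, -0.56 in IL18R1 and -0.26 in IL21R without both doubted libraries, to -0.45 in IL21R and -0.16 in IL6R with the median of probe sets, and to -0.15 in IL21R with quantile normalization repeated. The cause was not tested.

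Counts of called receptors moved as follows. High against no Myc had 3 lower, and 1 with a 2-fold limit. Low against no Myc had 3 higher, 5 with array weights, 1 at an adjusted p under 0.01, and 1 to 5 with single arrays left out, and 2 lower, 1 at an adjusted p under 0.01 or with a 2-fold limit, and 1 to 2 with single arrays left out. High against low Myc had 1 higher, 2 without both doubted libraries and 1 to 2 with single arrays left out. It had 3 lower, 5 with quantile normalization repeated, array weights or both doubted libraries left out, 1 with all probe sets, only the 2 groups or an adjusted p under 0.01, and 1 to 5 with single arrays left out. Leaving out both doubted libraries was chosen after seeing the data. Over all genes, high against low Myc gave 460 higher and 252 lower, 508 and 481 with quantile normalization repeated, 917 and 767 with array weights, 295 and 140 over all probe sets, 285 and 121 with only the 2 groups, 456 and 455 without both doubted libraries, and 168 to 616 and 44 to 588 with single arrays left out.

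The labels number the replicates and do not say what a number marks. The correlation of deviations between same-numbered arrays was 0.25, 0.45 and 0.47 for number 1, 0.03, 0.07 and 0.10 for number 2 and -0.31 for number 3, so it was positive for number 1 and not over 0.1 for every pair, and the numbers were not used as pairs. With the replicate block, high against low Myc had 0 receptors called higher and 0 lower: the adjusted p was 0.0703 for IL7R, 0.0753 for IL2RG, 0.0819 for IL2RB and 0.138 for IL18R1. High against no Myc had 2 called higher in place of 1, and 120 genes higher and 34 lower were called over the whole array in high against low Myc. The filter on a mean log2 of at least 5 left 17241 genes and no value for IL6R. Only 2 no Myc arrays, 1 of them with MYC at the low Myc level, limit all comparisons with that group.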

Other observations

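IL15RA, the neighbour of IL2RA on chromosome 10 and the chain that presents IL15 to IL2RB and IL2RG, read 211 to 268 in high Myc, 223 to 327 in low Myc and 260.4 to 294 in no Myc. The groups overlapped. JAK3, the kinase bound by IL2RG, read 285, 607, 444 and 341 in high Myc, 656, 674 and 607 in low Myc, and 804 and 733 in no Myc, with high Myc replicate 2 at the level of low Myc. JCHAIN, which joins secreted IgM and IgA, read 37.8, 348 and 166 in low Myc and 3916 and 3660.4 in no Myc. In high Myc it read 5408, 3527 and 4265 on replicates 1, 3 and 4 and 698 on replicate 2. All of these genes were chosen after their values were seen.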
